A study of Mus musculus with 6 samples.

Results

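The platelet-derived growth factor (PDGF) family was described by its 7 genes: the ligand genes Pdgfa, Pdgfb, Pdgfc and Pdgfd, the receptor genes Pdgfra and Pdgfrb, and the receptor-like gene Pdgfrl. They were chosen by gene symbol and make up 7 of the 24346 symbols listed in each library. The libraries came from mouse cartilage of the spheno-occipital synchondrosis, a growth cartilage of the cranial base, in which layers of flat and round chondrocytes were cut out by laser microdissection. There were 3 libraries titled FP and 3 titled RR, numbered 11, 14 and 16 in both. No label spells out these codes, which are therefore kept. All 6 libraries share the genotype Gli1CreERT2; Tomato flox and tamoxifen given at P3 (postnatal day 3), so that the Cre recombinase was under Gli1 control and no group lacked it. The age at collection, and whether Tomato guided the cutting, have no entry in the sources used here. Whether different libraries stand for different animals is not stated, and p-values therefore reflect the spread among these 6 samples alone, which may be technical.

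PDGF ligands act as dimers. PDGF-A and PDGF-B are cut inside the cell by proprotein convertases, whereas PDGF-C and PDGF-D are secreted with a CUB domain that must be removed by plasminogen activators or other proteases before they can bind. The receptors are tyrosine kinases that pair up on binding. PDGFRα answers to PDGF-A, PDGF-B and PDGF-C, and PDGFRβ to PDGF-B and PDGF-D. In the skeleton, PDGFRα marks mesenchymal cells of the perichondrium and marrow, and PDGFRβ marks the mural cells around vessels as well as skeletal progenitors. Pdgfrl encodes a secreted protein with immunoglobulin-like domains that lacks a kinase.

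The receptor genes were the members whose values stood apart most between the groups. Pdgfrb averaged 12.51 ± 1.49 FPKM (fragments per kilobase of transcript, scaled to library size, a level per length) in RR and 5.01 ± 0.535 in FP (SD, n = 3 each), a 2.50-fold ratio. Pdgfra averaged 13.05 ± 3.66 FPKM in RR and 6.81 ± 0.310 in FP, a 1.92-fold ratio. Pdgfrl and 3 of the ligand genes had overlapping values in FP and RR. Of the 6 members tested, 0 passed limma at a Benjamini-Hochberg adjusted p under 0.05, where 0.967% of the 14789 tested genes passed (0.412% lower and 0.554% higher in FP), and Pdgfrb and Pdgfra had unadjusted p-values of 0.00111 and 0.0181, where 10.3% of tested genes lay under 0.05. No member is therefore called higher or lower, and differences are given as values.

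RefSeq promoter windows (GRCm38.p6) were found for 4 of the 7 members, and those of Pdgfra and its ligand gene Pdgfc are shown because this receptor and ligand differ in how their values sorted by group. Each is the 250 bases before the annotated start, 5′ to 3′ on the plus strand, at chr5:75152001-75152250 and chr3:81036166-81036415, and capitals mark CpG dinucleotides.
Pdgfra: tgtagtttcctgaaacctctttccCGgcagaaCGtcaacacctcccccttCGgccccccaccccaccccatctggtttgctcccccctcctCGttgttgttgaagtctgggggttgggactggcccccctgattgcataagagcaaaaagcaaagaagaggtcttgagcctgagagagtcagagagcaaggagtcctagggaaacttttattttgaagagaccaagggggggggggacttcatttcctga
Pdgfc: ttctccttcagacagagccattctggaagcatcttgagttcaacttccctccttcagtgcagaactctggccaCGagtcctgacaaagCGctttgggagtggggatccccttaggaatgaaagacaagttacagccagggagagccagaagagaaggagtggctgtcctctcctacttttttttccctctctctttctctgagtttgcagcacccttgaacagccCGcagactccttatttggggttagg
The Pdgfra window holds 4 CpG and the Pdgfc window 3, against a median of 6 over 32851 windows of this length, while the 2 windows of Pdgfa hold 19 and 28. Neither printed window holds the GC box GGGCGG, the CCAAT box CCAAT or the TATA box TATAAA on either strand, which are found in 32.7%, 33.8% and 12.4% of all windows. The window of Pdgfd holds 1 TATA box, and those of Pdgfa hold 1 and 2 GC boxes. These matches describe letters and say nothing of a factor.

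On mm10, Pdgfra lies on chromosome 5 (75152292 to 75198215, plus strand) and Pdgfrb on chromosome 18 (61045150 to 61085061, plus strand), each with over 20 exons in its longest coding transcript. Pdgfrl lies on chromosome 8 (40926212 to 40990785). Pdgfa lies on chromosome 5 as well (138976014 to 138997370, minus strand), Pdgfb on chromosome 15 (79995874 to 80014977, minus strand), Pdgfc on chromosome 3 (81036416 to 81214040) and Pdgfd on chromosome 9 (6168584 to 6378850). GENCODE places noncoding genes on the opposite strand over parts of Pdgfa, Pdgfb, Pdgfc and Pdgfra, places Ddi1 on the opposite strand within Pdgfd, and ends Mtus1 0.129 kb beyond Pdgfrl on the opposite strand. Whether counting used strand is not stated, and reads of overlapping exons cannot be told apart.

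Among the receptors, Pdgfrb stood at 4.65, 5.63 and 4.76 FPKM across FP 11, 14 and 16, and at 14.2, 11.4 and 12.0 FPKM across RR 11, 14 and 16. The groups did not overlap, and the lowest RR value lay well above the highest FP value. In bulk samples, fewer cells of a type and less RNA per cell cannot be told apart. The log2 difference FP minus RR, on the log2(FPKM + 1) scale, was -1.17 ± 0.24 (SE, 95% interval -1.72 to -0.61, limma adjusted p = 0.0833). By unadjusted p, Pdgfrb ranked 197 among the 14789 tested genes. It passed when only genes averaging 5 FPKM or more were tested (adjusted p = 0.0372, with fewer genes tested) and in none of the 6 fits without 1 library (adjusted p = 0.174 to 0.337).

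Pdgfra stood at 6.75, 7.14 and 6.53 FPKM across the FP libraries, against 16.3, 9.07 and 13.8 across RR, in the order 11, 14 and 16. The FP values were close together and the RR values were not, with RR 14 nearest to FP. The groups did not overlap. The log2 difference was -0.81 ± 0.28 (SE, 95% interval -1.45 to -0.18, limma adjusted p = 0.333). RR 14 also stood apart from the other libraries on the first principal component of all tested genes, and without it the Pdgfra difference was -1.03 (adjusted p = 0.286). Of the 6 tested members, 2 had groups that did not overlap, both lower in FP. Non-overlapping groups occurred in 16% of all tested genes, 7.28% with FP lower and 8.74% with FP higher, and the receptors' separation is to be read against that share.

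Pdgfrl, the receptor-like gene, had the highest level per length of the family in both groups. It had FP values of 21.5, 15.1 and 23.4 FPKM beside RR values of 21.6, 14.8 and 26.5. In both groups library 14 was lowest and library 16 highest, and the groups overlapped throughout. The log2 difference was -0.05 ± 0.30, with a 95% interval from -0.74 to 0.64. The interval of Pdgfrb, -1.72 to -0.61, overlaps it, and the difference between these genes was not tested.

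**Figure D1:**
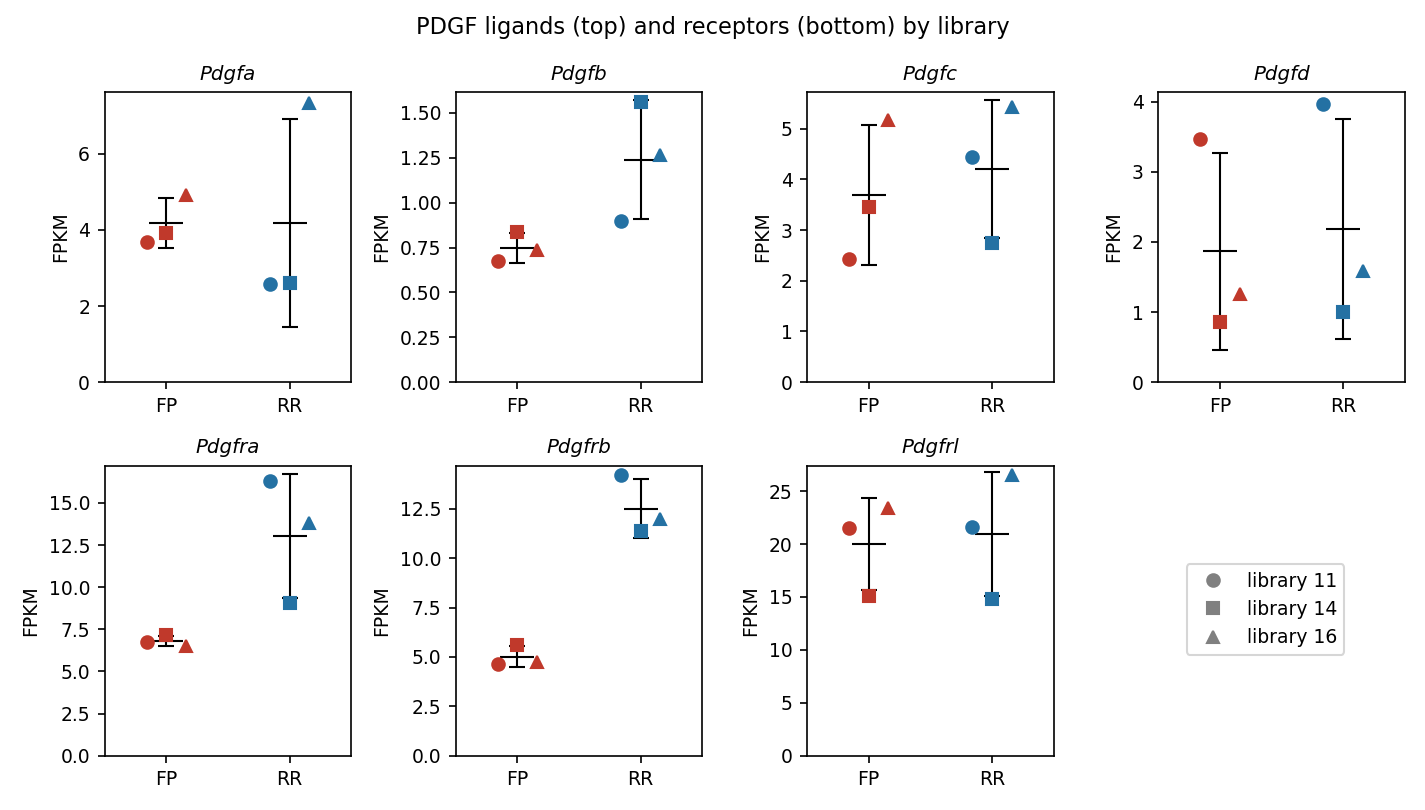
FPKM (vertical axes, each from 0) of the 4 ligand genes and 3 receptor genes in the FP and RR libraries, with one symbol per library and bars for the mean ± SD of 3 libraries. Pdgfra, Pdgfrb and Pdgfb show FP values all below the RR values, whereas Pdgfa, Pdgfc, Pdgfd and Pdgfrl overlap.

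Among the ligands, Pdgfb, the ligand of both receptors, was the lowest. It measured 0.673, 0.836 and 0.734 FPKM in the FP libraries, compared with 0.896, 1.56 and 1.26 FPKM in RR. The FP values were all below the RR values, by a margin of less than the spread within RR. The mean over the 6 libraries, 0.993 FPKM, was just under the minimum of 1 FPKM for testing. These values stood for an estimated 4.84 to 10.6 fragments per library on its 2944 bp transcript. Without the minimum the log2 difference was -0.35 ± 0.31 (limma adjusted p = 0.827), so that no difference was called. The part of depth in this was not tested.

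Pdgfa, the ligand of PDGFRα, stood at 3.67, 3.93 and 4.93 FPKM across the FP libraries, against 2.58, 2.61 and 7.33 across RR. RR held both the lowest values and the highest, and the means were alike, at 4.18 ± 0.663 in FP and 4.17 ± 2.73 in RR. The log2 difference was 0.11 ± 0.37 (95% interval -0.74 to 0.96). It turned to -0.020 when libraries were rescaled without the 100 highest genes.

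Pdgfc, another ligand of PDGFRα, had FP values of 2.44, 3.46 and 5.16 FPKM beside RR values of 4.45, 2.74 and 5.42. Library 16 was highest in both groups, and the groups overlapped. The log2 difference was -0.16 ± 0.33 (95% interval -0.92 to 0.60).

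Pdgfd, the ligand of PDGFRβ, measured 3.47, 0.862 and 1.26 FPKM in the FP libraries, compared with 3.96, 1.005 and 1.58 FPKM in RR. The values sorted by library number and not by group, with both libraries numbered 11 at over 2 times the level of the others. Within each number the RR value was the higher, by ratios of 1.14, 1.17 and 1.25, and the log2 difference was -0.15 ± 0.48 (95% interval -1.23 to 0.94). In library FP 14 and RR 14 this was an estimated 5.31 and 5.27 fragments.

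Ordered by level per length, the RR libraries gave Pdgfrl at 21.0 ± 5.85 FPKM, then Pdgfra, Pdgfrb, Pdgfc at 4.20 ± 1.36, Pdgfa, Pdgfd at 2.18 ± 1.57 and Pdgfb at 1.24 ± 0.332. The ranges of each gene and the next in this order overlapped, except between Pdgfrb and Pdgfc, where receptors and ligands parted. In FP the order was Pdgfrl at 20.0 ± 4.33 FPKM, Pdgfra, Pdgfrb, Pdgfa, Pdgfc at 3.69 ± 1.38, Pdgfd at 1.87 ± 1.41 and Pdgfb at 0.748 ± 0.0822. There Pdgfrl, Pdgfra and Pdgfrb did not overlap one another and Pdgfb lay under every other gene, while the ranges of Pdgfrb and Pdgfa, of Pdgfa and Pdgfc and of Pdgfc and Pdgfd overlapped. Among the means of the tested genes, Pdgfra stood above 81.4% of genes in RR and 62.4% in FP, and Pdgfrb above 80.5% and 53.6%.

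Summed over Pdgfra and Pdgfrb, receptor levels were 11.4, 12.8 and 11.3 FPKM across FP 11, 14 and 16, and 30.5, 20.4 and 25.7 across RR. The 4 ligand genes summed to 10.3, 9.08 and 12.1 FPKM across FP, and to 11.9, 7.92 and 15.6 across RR. The ratio of summed ligands to summed receptors was 0.894 ± 0.180 in FP and 0.461 ± 0.125 in RR, with no overlap. Pdgfra exceeded Pdgfrb in each FP library, at ratios of 1.45, 1.27 and 1.37. In RR that ratio was 1.15, 0.798 and 1.15, so that RR 14 was the library with more Pdgfrb than Pdgfra. Pdgfrl was 1.71 ± 0.468 times the summed receptors in FP and 0.821 ± 0.180 times in RR. These sums and ratios were formed with the member values known and were not tested.

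**Figure D2:**
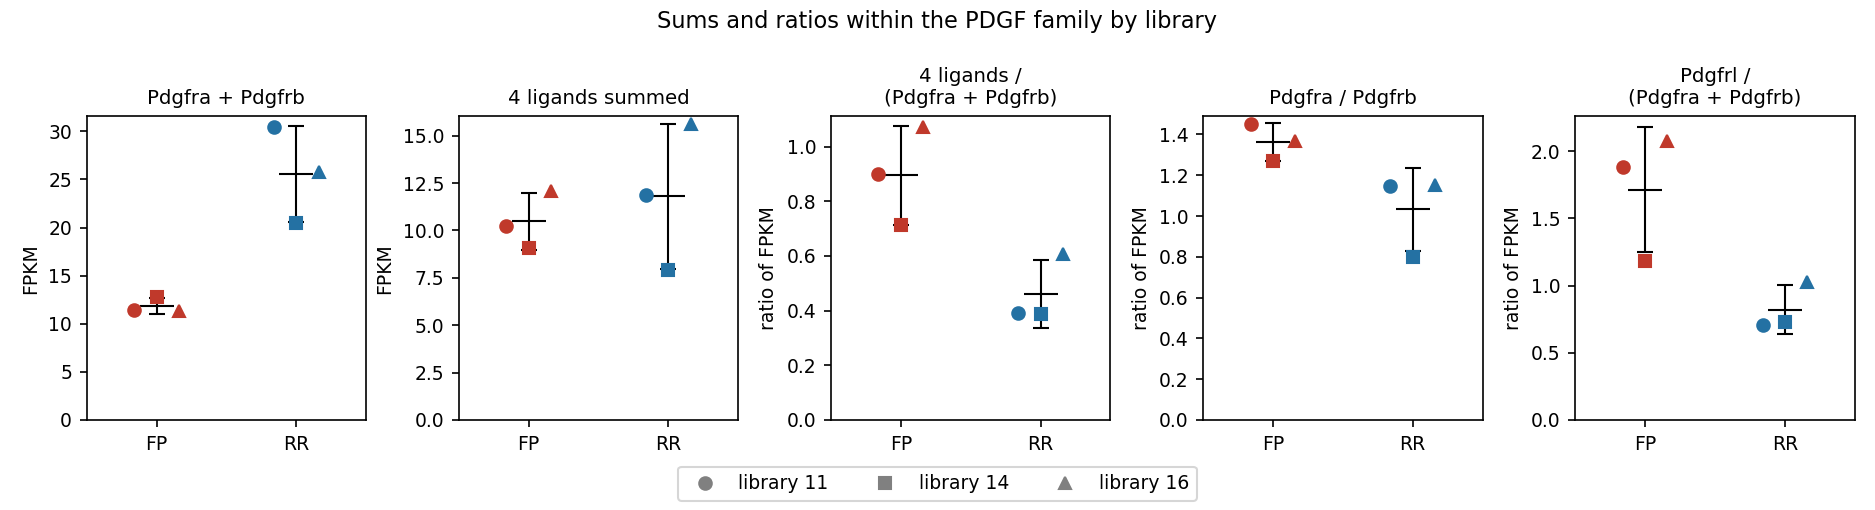
Sums of FPKM and ratios of FPKM within the PDGF family by library (vertical axes from 0), with bars for the mean ± SD of 3 libraries. The receptor sum lies at 11.3 to 12.8 FPKM in FP and at 20.4 to 30.5 in RR, while the ligand sums overlap.

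The genes whose log2 values followed each member most closely over the 6 libraries were taken from those averaging 5 FPKM or more. For Pdgfrb they were Efemp1, an extracellular matrix glycoprotein gene (Pearson's r = 0.988), Fancc (0.987) and Ippk (0.987). Efemp1 stood at 2.89, 2.996 and 2.38 FPKM across the FP libraries, against 18.5, 15.1 and 12.2 across RR. For Pdgfra they were Zhx3 (0.982), A2m (0.977) and Pogz (0.974), and A2m, the gene of the protease inhibitor alpha-2-macroglobulin, had FP values of 2.22, 2.15 and 1.42 FPKM beside RR values of 24.1, 8.60 and 21.6. As in Pdgfra, RR 14 was the lowest RR library for A2m. Those of the other members included H3f3b and Gak for Pdgfa, Gkap1 and Ifnar2 for Pdgfc, Armcx3, Tspan3 and Kif2a for Pdgfd, and Megf6, Pip4k2c and Ago2 for Pdgfrl, at r from 0.947 to 0.996. Each was the best of about 6500 genes over 6 libraries that share the group difference, so these are descriptions without a test.

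Of 45 genes that act with the PDGF system, 41 were tested, and 2 passed, both lower in FP, where 0.967% of all tested genes passed and 0.412% passed lower in FP. They stand on a list of 14 genes for ligand processing and access to the receptors, of which 11 were tested. Serpine2, which encodes protease nexin-1, an inhibitor of the plasminogen activators, measured 24.9, 15.6 and 16.8 FPKM in the FP libraries, compared with 129, 53.3 and 110 FPKM in RR. Thbs1, the gene of the matrix glycoprotein thrombospondin 1, stood at 451, 342 and 346 FPKM across the FP libraries, against 1347, 1041 and 1253 across RR. All FP values of both genes lay below all RR values, with log2 differences of -2.23 ± 0.38 (limma adjusted p = 0.0342) and -1.68 ± 0.30 (limma adjusted p = 0.0449). Leaving out any 1 of the 6 libraries ended the Thbs1 call (adjusted p = 0.0956 to 0.295), and 5 of these 6 fits ended the Serpine2 call, the exception being the fit without RR 14 (adjusted p = 0.0211 to 0.176). Across the list 6 estimates were positive and 5 negative, with a median of 0.09 beside 0.02 over all tested genes. The lists were chosen with earlier results of these data known, so these counts do not test the lists.

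Another 3 genes of that list, named after their values were seen, lay higher in FP without passing. Pcsk6, a proprotein convertase gene, had FP values of 17.3, 21.6 and 15.9 FPKM beside RR values of 7.47, 8.78 and 9.53 (limma adjusted p = 0.159). Cspg4, the NG2 proteoglycan that binds PDGF-A, measured 112, 127 and 144 FPKM in the FP libraries, compared with 53.9, 59.0 and 105 FPKM in RR (adjusted p = 0.388). Nrp1, a neuropilin co-receptor, stood at 9.96, 6.01 and 7.03 FPKM across the FP libraries, against 4.97, 3.27 and 5.12 across RR (adjusted p = 0.484). None of the 3 overlapped between groups. Pcsk5, another proprotein convertase gene, did not overlap either and lay the other way, with FP values of 1.25, 1.70 and 1.74 FPKM beside RR values of 2.63, 4.16 and 2.24 (limma adjusted p = 0.576). With Serpine2 and Thbs1, 6 of the 11 tested genes of the list had groups that did not overlap, 3 in each direction, where the share over all tested genes was 16%. As the list was chosen with earlier results known, this count does not test it. The activators of PDGF-C and PDGF-D were low: Plat, tissue plasminogen activator, ranged from 0.669 to 3.18 FPKM over the 6 libraries and Plau, urokinase, from 0.214 to 0.997.

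Downstream of the receptors, 22 of 23 signalling partners were tested and 0 passed in limma, with 0 at an unadjusted p under 0.05. Over all tested genes 0.967% passed, a share near which 0 of 22 lies, and 10.3% had such a p. Of the estimates, 12 were positive and 10 negative, with a median of 0.01. Pik3r2, a regulatory subunit of phosphoinositide 3-kinase, had the smallest p, with means of 20.0 ± 4.99 FPKM (FP) and 32.8 ± 9.07 (RR) (log2 difference -0.68, 95% interval -1.40 to 0.03), followed by Src, a cytoplasmic tyrosine kinase, at 6.98 ± 2.49 and 9.81 ± 0.879. Of 8 attenuators, which remove or dephosphorylate the receptors, 8 were tested and 0 passed, with 0 at an unadjusted p under 0.05 and a median of 0.21. Ptpn12, a tyrosine phosphatase, had means of 8.92 ± 1.62 FPKM (FP) and 5.87 ± 1.21 (RR), and Cbl, a ubiquitin ligase for active receptors, had means of 6.69 ± 1.11 and 4.56 ± 0.545.

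Of 15 genes of related receptors and their ligands, 12 were tested and 0 passed in limma, where 0.967% of all tested genes passed. An unadjusted p under 0.05 was found for 0, where 10.3% of all tested genes had one, and the median was -0.25. Kdr, the main VEGF receptor, had means of 1.14 ± 0.483 FPKM (FP) and 2.69 ± 1.08 (RR) (log2 difference -0.77 ± 0.37), and Csf1, a macrophage growth factor, had means of 4.44 ± 1.75 and 7.26 ± 1.59.

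**Figure D3:**
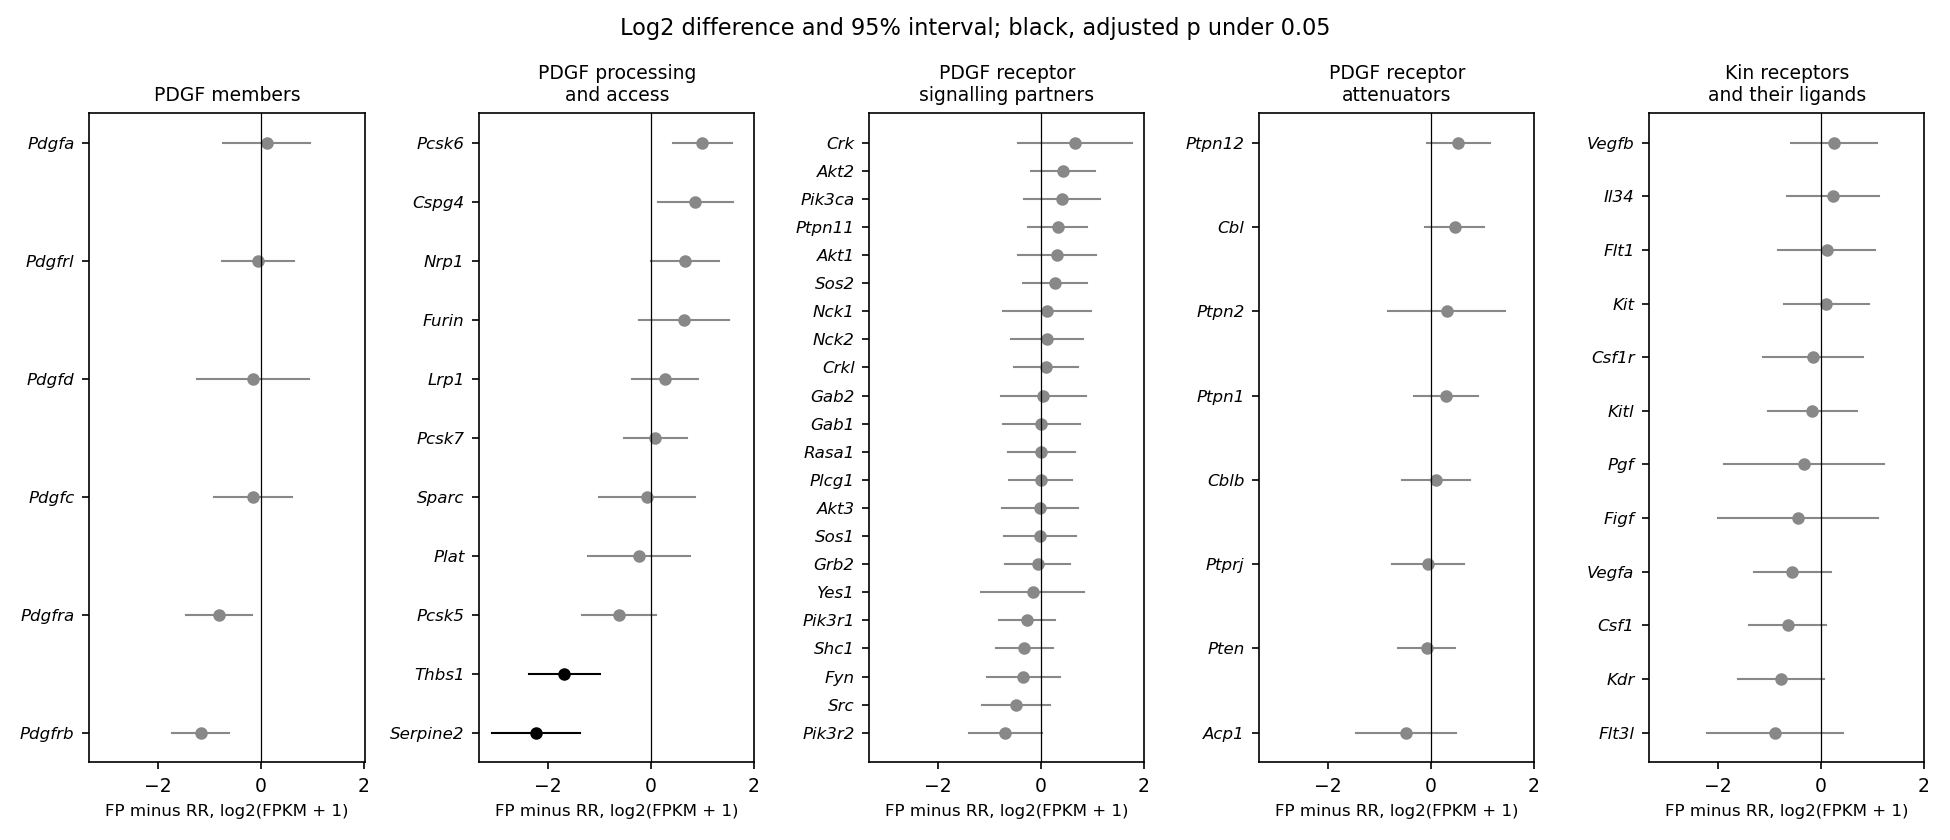
Log2 difference FP minus RR on the log2(FPKM + 1) scale (horizontal axes) with 95% intervals for the tested PDGF members, the 3 lists of PDGF pathway genes and the related receptors and ligands. Serpine2 and Thbs1, in black, passed at an adjusted p under 0.05, while Pdgfrb and Pdgfra are the members whose intervals lie below 0.

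Chondrocyte markers were high in all 6 libraries, with the 11 of 12 listed markers summing to 56897 to 99592 FPKM in FP and 45878 to 98102 in RR. Col2a1 made up most of the sum in each library, at 38697 to 81873 FPKM, and overlapped between the groups. All 11 estimates were positive, with a median of 0.88, and 5 had an unadjusted p under 0.05. Over all 14789 tested genes, 7634 estimates were positive, 10.3% had such a p and 0.967% passed. Groups did not overlap for 5 of the 11, all higher in FP, where 8.74% of all tested genes did not overlap with FP higher. Of the 11, 1 passed, Comp, a cartilage matrix protein gene (limma adjusted p = 0.00310), and Matn3, the matrilin 3 gene, had means of 377 ± 144 FPKM (FP) and 145 ± 41.5 (RR). Because Pdgfrb and Pdgfra are used as markers of mural cells and fibroblasts, the markers of such cells were read in the captured layers. Counts for the marker lists below are to be read against the shares of 0.967% and 10.3%.

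The 10 pericyte and smooth muscle markers summed to 10.2 to 33.8 FPKM in FP and 17.0 to 29.1 in RR, and 0 of 9 tested passed in limma, with 0 at an unadjusted p under 0.05. By library, FP 11, 14 and 16 summed to 13.1, 10.2 and 33.8 FPKM, beside 17.0, 18.3 and 29.1 across RR. FP 16 had the highest sum of all libraries, while FP 11 and FP 14 lay below all RR libraries. For Pdgfrb, every FP library lay below all RR libraries, with FP 16 at 4.76 FPKM. The markers in the FP 16 sum were uneven. Myh11 at 7.59 and Acta2 at 6.93 FPKM were the highest of all libraries there, and Rgs5 at 1.04 FPKM the lowest. Of the 9 estimates, 7 were negative, with a median of -0.25 beside 0.02 over all tested genes, and the part of these cells in the Pdgfrb values was not tested. Higd1b and Cnn1 were listed at 0 in FP 11 and FP 14, but at 2.52 and 3.19 FPKM in FP 16. In RR, Higd1b ranged from 0.591 to 2.63 FPKM and Cnn1, too low for testing, from 0.299 to 1.06. The groups overlapped for both, and FP 16 was the highest of all libraries for Cnn1. Notch3 and Tagln stood at log2 differences of -0.36 ± 0.33 and -0.53 ± 0.53, and the positive estimates were Acta2 at 0.22 and Abcc9 at 0.08. The 12 endothelial markers, cells known as a source of PDGF-B, summed to 14.4 to 26.9 FPKM in FP and 12.8 to 32.9 in RR, and 0 of 9 passed, with 0 at an unadjusted p under 0.05. Tek had means of 0.861 ± 0.278 FPKM (FP) and 1.67 ± 0.141 (RR), and Cdh5 of 2.31 ± 0.649 and 4.07 ± 2.76. Tek was the 1 tested gene of this list whose groups did not overlap, with FP below RR. Of the 9 estimates, 6 were negative and 3 positive (Esam at 0.35, Erg at 0.27 and Egfl7 at 0.19), with a median of -0.05. Sox17, an endothelial transcription factor gene too low for testing, was listed at 0.198, 0 and 0.217 FPKM across FP, beside 1.59, 1.98 and 1.63 across RR, with no overlap. Such FP values are near the 0.128 to 0.298 FPKM of 1 fragment on 2000 bp. Vwf (means of 0.921 in FP and 1.03 in RR) and Cldn5 (0.658 and 1.11), also too low for testing, overlapped. Among all tested genes, 16% had groups that did not overlap.

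The 11 perichondrium and fibroblast markers summed to 269 to 930 FPKM in FP and 263 to 1678 in RR, and 0 of 9 passed, with 1 at an unadjusted p under 0.05. That was Ly6a, the Sca-1 gene, with means of 2.29 ± 0.952 FPKM (FP) and 7.31 ± 3.30 (RR) (log2 difference -1.29 ± 0.40, limma adjusted p = 0.274), whose groups did not overlap. Dpt stood at -0.80 ± 0.49. Of the 9 estimates, 5 were positive, from 0.15 for Thy1 to 0.46 for Mfap5, and the median was 0.15. Col1a1 spread from 107 to 1077 FPKM within RR, a wider range than that of Pdgfra. The part of these cells in the receptor values was not tested.

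Platelet and megakaryocyte markers, another known source of PDGF, summed to 7.997 to 15.9 FPKM in FP and 7.79 to 17.9 in RR (0 of 5 passed, Gp6 at -0.53 and Gp1bb at 0.69). Macrophage and leukocyte markers summed to 24.3 to 91.1 and 25.6 to 78.9 FPKM (0 of 9, Tyrobp at -1.25 and Aif1 at 0.96). Osteoblast and osteocyte markers summed to 10.6 to 29.4 and 4.46 to 58.5 FPKM (0 of 5, Phex at 0.56 and Ifitm5 at 0.23). Glial markers summed to 11.2 to 16.1 and 9.65 to 19.8 FPKM (0 of 4, Gfap at -0.37 and Mbp at -0.05). Skeletal muscle markers summed to 431 to 533 FPKM in FP and 267 to 811 in RR (0 of 8, with Myh8 at 2.01 and Acta1 at 2.05 the 2 at an unadjusted p under 0.05, and a median of 1.18). Of the 8 muscle estimates, 7 were positive and 1 was negative, that of Tnni2 (-0.50). The part of muscle in the receptor values was not tested. Tnni2 made up most of the muscle sum in each library, at 277, 314 and 330 FPKM across FP and 448, 236 and 769 across RR. Acta1 passed without RR 11 (limma adjusted p = 0.0322).

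**Figure D4:**
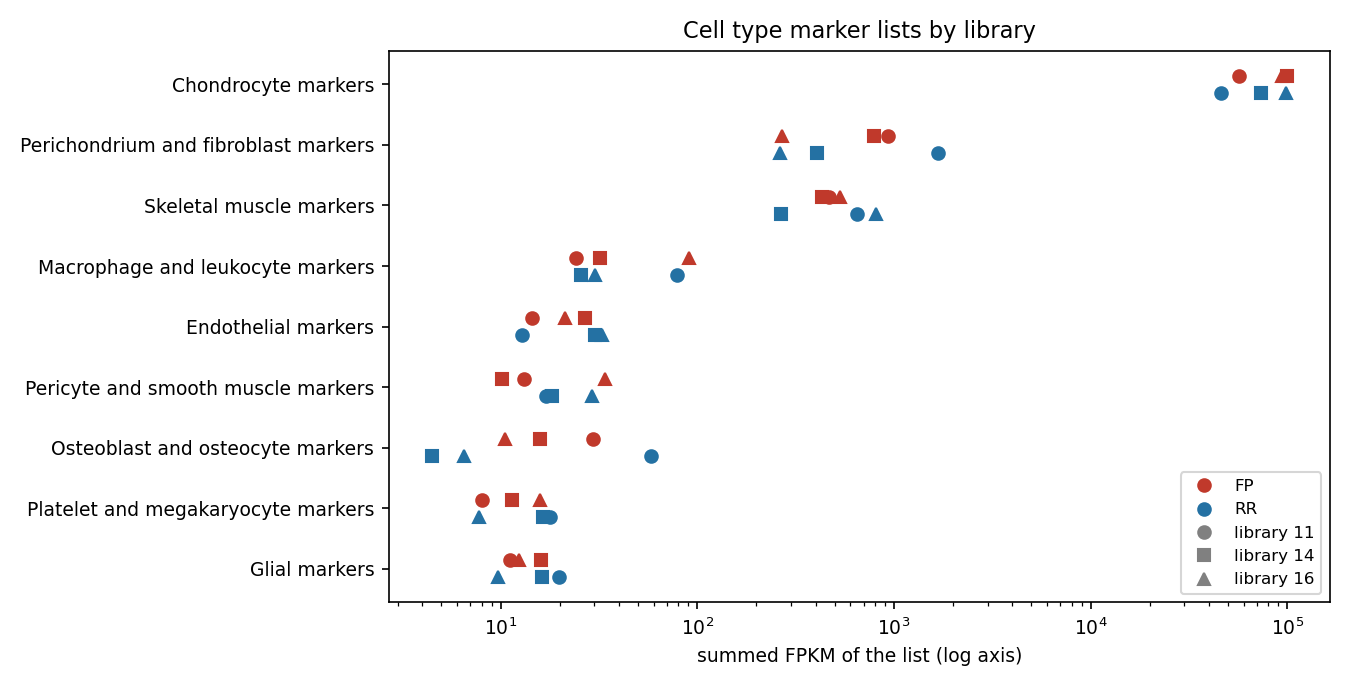
Summed FPKM of each cell type marker list (horizontal log axis) in the 3 FP and 3 RR libraries, with one symbol per library. The sums of FP and RR overlap for every list shown, and chondrocyte markers lie above all other lists in each library. A sum can rest mostly on 1 gene, such as Col2a1 or Tnni2.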

How the data were processed

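The authors deposited FPKM, with 1 value for each gene symbol in each library, per the file headers. The submitters' processing notes name Cuffdiff 2.2.1, TopHat2 2.1.1, SAMtools 0.1.18, Bowtie2 2.2.8 and the build mm10. The annotation, any scaling among libraries and the use of strand were not given in the sources used. Per the labels, total RNA libraries were made with a SMARTer stranded pico-input kit. Total fragments are unknown. FPKM summed over all genes ran from 547371 in RR 11 to 1126067 in FP 14. The median of the tested genes ran from 4.22 FPKM in FP 16 to 4.49 in FP 11. For genes with only 1 transcript (GENCODE M21, 1500 to 3000 b), low values of FPKM times length fell on steps (69.8% to 72.8% whole within 0.1 fragments, 20% by chance), so that 1 fragment on 2000 bp was worth 0.128 to 0.298 FPKM. Fragments per gene were estimated from this and the longest coding transcript.

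FP was compared with RR in limma 3.58.1 (R 4.3.3; lmFit and eBayes, intensity trend on), two-sided, on log2(FPKM + 1) of the 14789 genes averaging 1 FPKM or more, and p-values were adjusted by Benjamini-Hochberg over all of them. Low genes are understated on this scale, and folds are ratios of group means of FPKM. A listed 0 may be a failed estimate. The fit was also run on simulated data with independent noise and no effect of library number, so that it was not tested for such an effect. The members and gene lists were chosen with earlier results of these data known. All 7 members are named. Of each list, genes past the threshold are named, or the 2 with the smallest p where fewer than 2 passed, and for each tested member the 3 genes with the highest Pearson's r, small RNAs and unnamed gene models left out. Of these, 2 genes are not reported here. Other genes were picked with their values in view. Alternatives changed the pseudocount, filter, scaling, trend, weights, library number block and libraries.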

Additional observations from a re-analysis of the deposited data

How the results depend on the processing

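Pdgfra and Pdgfrb kept their negative direction in all 17 alternatives, from -1.07 to -0.64 (limma adjusted p = 0.180 to 0.739) and from -1.32 to -1.04 (adjusted p = 0.0372 to 0.542). Pdgfrb passed in 1 of them, with a mean of at least 5 FPKM (-1.17). Rescaling without the 100 highest genes moved the median of all genes to -0.12 from 0.02, turned the split of called genes from 82 higher and 61 lower to 73 and 84, turned Pdgfa to -0.020 and left Pdgfra at -0.97 and Pdgfrb at -1.32. The 143 called genes became 83 without an intensity trend, 42, 8 and 20 without both libraries numbered 11, 14 and 16, and 42 to 85 without 1 library. The 2 called PDGF pathway genes became 1 without a filter, 0 without a trend, 0 without both libraries of any number, and 0 to 1 without 1 library.

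Without both libraries numbered 11, Pdgfa turned to -0.022, Pdgfc to 0.097 and Mbp to 0.59. Without both numbered 14, Pdgfa turned to -0.053 and Ifitm5 to -0.24, and without both numbered 16 Pdgfrl turned to 0.0099. Mbp was at 0.10 with a pseudocount of 0.1. Without 1 library Pdgfa ran from -0.092 to 0.52, Pdgfc from -0.38 to 0.046, Pdgfd from -0.52 to 0.23, Pdgfrl from -0.27 to 0.13, Mbp from -0.63 to 0.40 and Ifitm5 from -0.085 to 0.47. None of these was called in any fit. The cause was not tested.

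The labels do not say that a library number marks a shared animal or day. Deviations from the group means correlated across genes at 0.319, 0.185 and 0.0890 for the FP and RR libraries numbered 11, 14 and 16, and each library correlated best with its own number, as a hint from the data. With the number as a block, 271 genes were called in place of 143, the PDGF pathway count was 2, Pdgfra was at -0.81 (adjusted p = 0.180), Pdgfrb at -1.17 (adjusted p = 0.0588) and Matn3 passed (adjusted p = 0.0290). The lowest estimated fragments per library were those of Pdgfb and Pdgfd, at 4.84 and 5.27.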

Other observations

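Pdgfra and Pdgfrb each lie beside a related receptor gene on the same strand. Csf1r, the receptor of macrophage growth factors, starts 15.5 kb beyond Pdgfrb, and Kit, the receptor of stem cell factor, starts 377 kb beyond Pdgfra. Libraries FP 11, 14 and 16 held Csf1r at 2.83, 2.37 and 1.73 FPKM, beside 5.25, 2.76 and 1.03 across RR. Kit measured 1.12, 1.38 and 1.48 FPKM across FP, beside 1.69, 0.967 and 0.888 across RR. Both neighbours overlapped between the groups, with log2 differences of -0.15 ± 0.43 and 0.11 ± 0.36 (limma adjusted p = 0.959 and 0.965), beside -1.17 ± 0.24 for Pdgfrb and -0.81 ± 0.28 for Pdgfra. The differences between neighbours were not tested. Ddi1, a retroviral-type protease gene on the opposite strand within Pdgfd, was listed at 0, 0 and 0.254 FPKM across FP, beside 2.66, 2.02 and 1.43 across RR, while Pdgfd itself overlapped between the groups. These Ddi1 values are low, and non-overlapping groups occurred in 16% of all tested genes.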
